A study of Mus musculus with 2 samples.

Results

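The subject here is a set of 10 genes that carry, relay or mark signaling through the IL-4 receptor and through gp130, the receptor chain shared by the IL-6 family of cytokines: Il4ra, Il13ra1, Il6st, Il6ra, Osmr, Lifr, Stat3, Stat6, Socs3 and Lbp. They were taken by symbol from the 19059 features counted in single-nucleus RNA-seq of mouse CIC::DUX4 sarcoma (CDS), and all 10 had a feature. The set was put together with the levels of these genes in these same tumors already known, so their levels and differences are given as a description, with no test. Tests are given for other genes of the same pathways and counted over all genes.

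The nuclei came from autochthonous hind limb tumors of dFLEx CDS mice, whose allele places the human fusion gene CIC::DUX4 under a recombinase switch. Tumors were started in the gastrocnemius muscle of young adult mice by electroporating plasmids for the recombinases Cre and FLPE, both under the broadly active CAG promoter, which does not limit the fusion to a cell type. The first group was 4 untreated tumors, labelled dFLEx CDS +/-. The second group was 4 tumors of dFLEx CDS mice given 0.42 mg/kg Minnelide, a water-soluble prodrug of the transcription inhibitor triptolide, for 21 days. The study picked its treated tumors for unlike growth under the drug, and the labels do not say which tumor grew how. The names of the deposited matrices carry words on response, but groups were taken from the labels alone, so no comparison by response was made. Age, sex and strain of the single animals are not given in the labels used here, and the untreated tumors are not labelled as vehicle controls. Tumors are numbered 1 to 4 within a group only to name them.

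The IL-4 receptor chain Il4ra pairs with Il13ra1 to form a receptor for IL-4 and IL-13 on non-lymphoid cells and on macrophages, and the pair signals mainly through Stat6, which drives alternative activation of macrophages. Il6st encodes gp130, which cannot bind most of its cytokines alone: Il6ra brings IL-6 to it, Lifr brings leukemia inhibitory factor (LIF), and Osmr brings oncostatin M. These receptors signal mainly through Stat3, which induces Socs3, the inhibitor that in turn binds gp130 and its kinases, and in liver they induce acute-phase genes such as Lbp, the lipopolysaccharide-binding protein that hands bacterial lipid to Cd14 and Tlr4.

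After compromised nuclei and doublets were removed, 59907 of 72338 deposited nuclei were retained, 4470 to 10368 per tumor, with 18487409 to 73211599 unique molecular identifiers (UMIs, counted molecules) deposited per tumor. Levels are UMIs of a gene per 1000000 UMIs of the same nuclei (CPM), and they are compared only within a gene, since a nuclear count also follows transcript length. Clusters of each tumor were named from marker genes, and a class carries the ending -like for that reason: 31751 tumor-like, 6934 fibroblast-like, 5263 myocyte-like, 3267 endothelial-like, 1750 macrophage-like, 930 mural-like (pericyte and smooth muscle markers) and 582 osteoclast-like nuclei, with 6183 nuclei left unnamed. Of the other classes, 3076 nuclei held tumor and endothelial markers together, 140 T and NK markers and 31 adipocyte markers. Within their own class the 9 tumor, 11 fibroblast, 10 macrophage and 12 endothelial markers measured were each found in every tumor.

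A pair of libraries stood apart in measures other than these genes. Untreated tumor 1 held only 247 tumor-like nuclei and 2772 of the nuclei with tumor and endothelial markers together, and untreated tumor 4 had a median of 883 UMIs per deposited nucleus against 2329 to 4031 in the others and yielded no macrophage-like cluster, so macrophage-like values rest on 3 untreated and 4 Minnelide tumors. Transcripts of the tumor markers were also found in the other classes, and more in the Minnelide tumors: their summed level was 2691 to 6344 CPM in fibroblast-like nuclei of untreated tumors and 6998 to 13309 CPM in those of Minnelide tumors. In macrophage-like nuclei the ranges were 3247 to 6551 and 11446 to 15546 CPM, in endothelial-like nuclei 3134 to 8044 and 8356 to 16331 CPM, and in tumor-like nuclei 16943 to 19730 and 15438 to 22644 CPM. The groups did not overlap in any of the 3 stromal classes and overlapped in the tumor-like class, and the part of these transcripts in the results below was not tested. The classes' own markers were lower by median in all 3 stromal classes of the Minnelide tumors, with ranges that overlapped. Summed macrophage markers in macrophage-like nuclei were at 2412 to 7995 CPM (median 2961) in untreated and 1394 to 3393 CPM (median 1950) in Minnelide tumors. Endothelial markers in endothelial-like nuclei were at 6752 to 9581 CPM (median 8755) and 3474 to 8734 CPM (median 5334). Fibroblast markers in fibroblast-like nuclei were at 5979 to 19198 CPM (median 10586) and 6129 to 9978 CPM (median 7854). In each of 4 pairs of tumors, 1 from each group, 49 to 132 cell barcodes recurred, and the libraries of a pair carry the same bases at a fixed place inside their barcodes. The labels name no run, so a run and the treatment cannot be told apart.

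**Figure D1:**
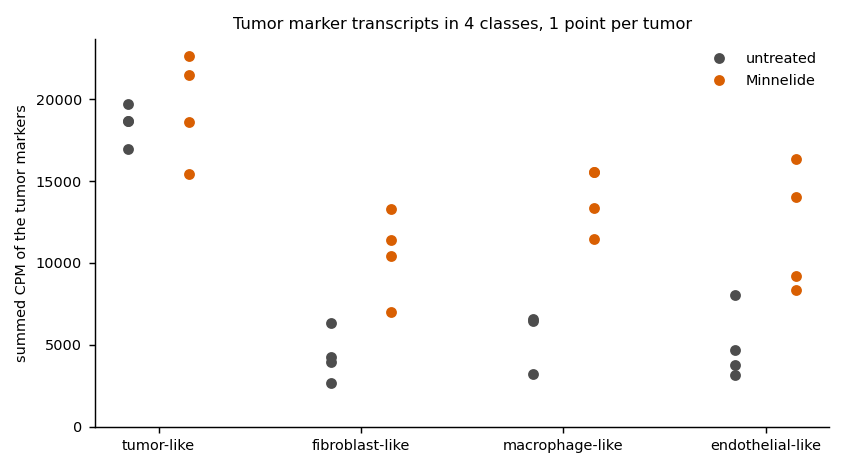
Summed level of the 9 tumor marker genes (CPM, vertical axis) in the tumor-like, fibroblast-like, macrophage-like and endothelial-like nuclei of each tumor, 1 point per tumor, with untreated and Minnelide tumors apart. In the 3 stromal classes every Minnelide tumor lies above every untreated tumor, and in the tumor-like class the groups overlap.

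The promoters of the genes were read for the elements that the relaying factors bind. In a RefSeq table of mouse promoters (GRCm38.p6, 250 bases before to 50 after each start site), 9 of the 10 genes had an entry, Lifr with a pair of start sites, and Lbp had none. The motif TTCNNNGAA, the form bound by most STAT proteins, and a longer form with 1 more N between TTC and GAA, which Stat6 prefers, were each searched; each reads the same on both strands, and a window with both forms was counted once as holding either. Socs3 had 1 match to TTCNNNGAA, and the other 8 genes had none to either motif in these windows. Of all 32851 windows in that table, 8.3% held TTCNNNGAA, 6.95% held the longer form and 14.6% held either. The window of Socs3, on the minus strand, is shown because it holds the match, in capitals, whose first base lies 154 bases before the start site; those of Il4ra and Il6st, both on the plus strand, are shown as the windows of the pair of receptor chains on which the set is built. A match of letters is not a bound site, and its absence from a window of this length says nothing about the factor.

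Socs3, chr11:117969317-117969616, minus strand: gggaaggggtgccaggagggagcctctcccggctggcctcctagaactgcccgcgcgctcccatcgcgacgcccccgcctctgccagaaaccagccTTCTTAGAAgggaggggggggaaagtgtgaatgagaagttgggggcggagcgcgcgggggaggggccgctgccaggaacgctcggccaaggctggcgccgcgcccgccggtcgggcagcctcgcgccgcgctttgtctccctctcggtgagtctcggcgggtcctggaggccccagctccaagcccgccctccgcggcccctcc
Il4ra, chr7:125552021-125552320, plus strand: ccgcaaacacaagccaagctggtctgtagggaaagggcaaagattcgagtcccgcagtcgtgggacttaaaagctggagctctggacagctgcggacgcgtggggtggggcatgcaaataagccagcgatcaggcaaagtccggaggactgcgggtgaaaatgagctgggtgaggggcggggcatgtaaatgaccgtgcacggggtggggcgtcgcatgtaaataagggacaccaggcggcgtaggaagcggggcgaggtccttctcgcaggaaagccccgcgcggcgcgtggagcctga
Il6st, chr13:112463820-112464119, plus strand: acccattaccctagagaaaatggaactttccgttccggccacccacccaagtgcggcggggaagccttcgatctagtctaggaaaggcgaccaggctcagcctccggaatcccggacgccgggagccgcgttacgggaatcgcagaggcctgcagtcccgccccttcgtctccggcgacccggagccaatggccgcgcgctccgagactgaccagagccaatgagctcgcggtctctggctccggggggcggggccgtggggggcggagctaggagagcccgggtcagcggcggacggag

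In the receptor chains for IL-4, untreated and Minnelide tumors lay apart over all retained nuclei, in tumor-like nuclei and in macrophage-like nuclei, and overlapped in fibroblast-like and endothelial-like nuclei. Il4ra (chr7:125151079-125182844 on GRCm39, plus strand) stood at 51.4, 44.6, 62.6 and 42.5 CPM in untreated tumors 1 to 4 and 22.6, 22.4, 21.8 and 20.6 CPM in Minnelide tumors 1 to 4 when all retained nuclei of a tumor were summed. Every Minnelide tumor lay below every untreated tumor, and the Minnelide tumors were close to each other. The group means were 50.3 ± 9.04 CPM (SD, n = 4) and 21.9 ± 0.899 CPM (SD, n = 4), a log2 fold change of -1.06 ± 0.16 (SE). In such sums of a whole tumor, fewer cells of a type and less RNA per cell cannot be told apart.

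In tumor-like nuclei, which held less of it, Il4ra was at 33.7, 21.8, 37.1 and 23.4 CPM in untreated tumors 1 to 4 and 12.7, 11.7, 11.1 and 8.24 CPM in Minnelide tumors 1 to 4, again without overlap, for a log2 fold change of -1.25 ± 0.22. Fibroblast-like nuclei held more: 93.2, 151, 192 and 165 CPM in untreated tumors 1 to 4 and 100.1, 69.4, 66 and 74 CPM in Minnelide tumors 1 to 4. There the groups met, because untreated tumor 1 was lower than Minnelide tumor 1, and the log2 fold change was -0.91 ± 0.25. Macrophage-like nuclei, in which Stat6 signaling is best known, held 98.1, 116 and 150.5 CPM in untreated tumors 1 to 3 and 87.6, 75.5, 61.9 and 43.5 CPM in Minnelide tumors 1 to 4, with no overlap and a log2 fold change of -0.71 ± 0.27. This value nearly vanished at a finer clustering, to -0.01, where the macrophage-like class held untreated tumors 1 to 3 and Minnelide tumors 1, 3 and 4. In endothelial-like nuclei the levels were lower, 69.2, 47.3, 46.8 and 31.9 CPM in untreated tumors 1 to 4 and 31.8, 33.1, 26 and 21.5 CPM in Minnelide tumors 1 to 4, and Minnelide tumor 2 exceeded untreated tumor 4 (log2 fold change -0.75 ± 0.23).

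Across the classes of the untreated tumors, Il4ra was highest in fibroblast-like (150.1 ± 41.6 CPM, SD, n = 4) and macrophage-like nuclei (121 ± 26.7 CPM, SD, n = 3), whose ranges met. Both lay above all other classes, since the next, endothelial-like nuclei, reached 69.2 CPM at most. From there down through osteoclast-like, tumor-like, mural-like and myocyte-like nuclei each range met the next. The Minnelide tumors kept fibroblast-like and macrophage-like nuclei at the top, at 66 to 100.1 CPM and 43.5 to 87.6 CPM, above the 21.5 to 33.1 CPM of endothelial-like nuclei. When nuclei were thinned to 1000 UMIs and shallower ones left out, 8.03% to 15.3% of fibroblast-like nuclei of untreated tumors and 5.84% to 8.90% of those of Minnelide tumors had a UMI of Il4ra, against 1.76% to 3.28% and 1.18% to 1.33% of tumor-like nuclei. Without thinning the shares were 21.8% to 31.9%, 14.8% to 28.7%, 2.76% to 19% and 2.88% to 7.54%, in the same order. Thinning left out 69.8% of tumor-like nuclei in untreated tumor 4 (5767 of 8262) and 12.8% in untreated tumor 3 (489 of 3815), against 0 to 14 in each Minnelide tumor, so the thinned tumor-like shares of untreated tumor 4 are those of its deeper nuclei. Of fibroblast-like nuclei it left out at most 14% of a tumor's.

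Il13ra1 (chrX:35375461-35435331, plus strand), the partner chain that binds IL-13, had a similar course. Summed over all retained nuclei it was at 43.8, 40.6, 44.3 and 34.7 CPM in untreated tumors 1 to 4 and 21.5, 24.8, 24 and 20.7 CPM in Minnelide tumors 1 to 4. The groups did not overlap (log2 fold change -0.70 ± 0.14). In tumor-like nuclei it was at 26.8, 17.9, 26.9 and 20.3 CPM in untreated tumors 1 to 4 and 13.4, 11.3, 16.2 and 8.56 CPM in Minnelide tumors 1 to 4, again apart (-0.74 ± 0.23), and in macrophage-like nuclei at 55.5, 64.2 and 120.4 CPM in untreated tumors 1 to 3 and 32.4, 44.2, 30.5 and 40.8 CPM in Minnelide tumors 1 to 4, apart as well (-1.01 ± 0.34). The macrophage-like value leaned on untreated tumor 3 and was -0.53 without it. In fibroblast-like nuclei, where Il13ra1 was highest, the levels were 89.3, 129.9, 114 and 117 CPM in untreated tumors 1 to 4 and 82.3, 99.4, 53.7 and 60.4 CPM in Minnelide tumors 1 to 4, and Minnelide tumor 2 lay within the untreated range (-0.55 ± 0.23). In endothelial-like nuclei the ranges met too, at 34.7 to 66.5 CPM and 28.5 to 44 CPM (-0.65 ± 0.23). By their medians in untreated tumors, the classes ran in Il13ra1 from fibroblast-like (89.3 to 129.9 CPM), mural-like (42.1 to 98.5 CPM), macrophage-like (55.5 to 120.4 CPM), endothelial-like (34.7 to 66.5 CPM), osteoclast-like (30.2 to 39.4 CPM), tumor-like (17.9 to 26.9 CPM) to myocyte-like (13.5 to 35.4 CPM) nuclei, and the ranges of neighbors met except between osteoclast-like and tumor-like nuclei.

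Neither ligand of the pair was found at a level that these libraries could follow. Il13 had 0 UMIs over all retained nuclei of every tumor, which with 3 UMIs as the floor allows at most 0.188 CPM over the nuclei of the shallowest tumor and more in a single class, and Il4 was at 0 to 0.846 CPM in the sums of all retained nuclei. Such floors cover counting error only.

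**Figure D2:**
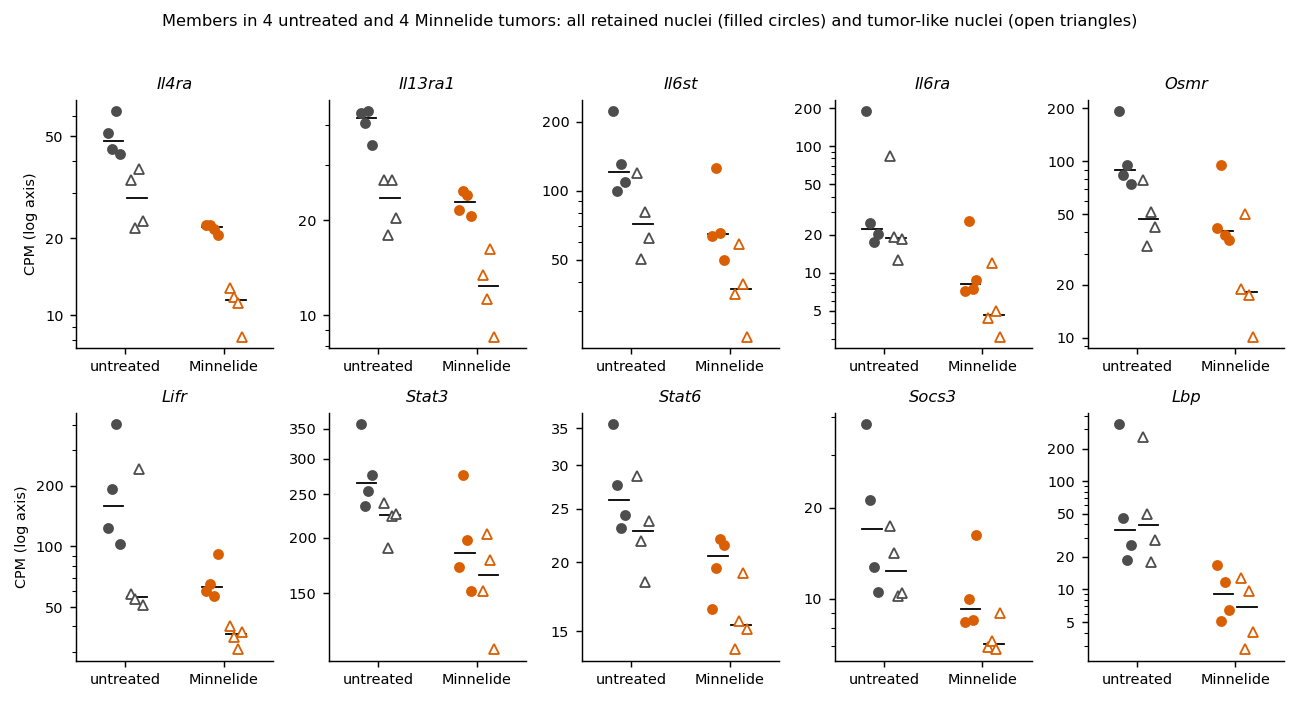
Level of each of the 10 genes (CPM, logarithmic vertical axis) in all retained nuclei (filled circles) and tumor-like nuclei (open triangles), 1 point per tumor, with the untreated tumors on the left, the Minnelide tumors on the right and a line at each median. Among the circles, the groups are apart for Il4ra, Il13ra1, Lifr, Stat6 and Lbp and overlap for Il6st, Il6ra, Osmr, Stat3 and Socs3, and untreated tumor 1 is far above the others for Il6ra and Lbp.

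gp130 itself was higher in fibroblast-like, endothelial-like and mural-like than in tumor-like nuclei of the untreated tumors. Il6st (chr13:112600604-112646620, plus strand) was at 223, 99.9, 132 and 109.7 CPM in untreated tumors 1 to 4 and 63.7, 126, 65.6 and 50.1 CPM in Minnelide tumors 1 to 4 over all retained nuclei. Minnelide tumor 2 lay within the untreated range, and the other 3 Minnelide tumors lay below it (log2 fold change -0.71 ± 0.33). Of the 5 sets of nuclei compared, the groups did not overlap in the fibroblast-like ones: 417, 255, 298 and 279.7 CPM in untreated tumors 1 to 4 and 232, 220.0, 167 and 120.4 CPM in Minnelide tumors 1 to 4 (-0.68 ± 0.22). In endothelial-like nuclei the level was 558, 284, 213 and 148 CPM in untreated tumors 1 to 4 and 157, 158, 114 and 109 CPM in Minnelide tumors 1 to 4. Untreated tumor 1 was the highest there and Minnelide tumors 1 and 2 exceeded untreated tumor 4 (-1.10 ± 0.34, or -0.66 without untreated tumor 1). Tumor-like nuclei had 119, 50.6, 81.1 and 62.2 CPM in untreated tumors 1 to 4 and 35.6, 58.8, 39.3 and 23.2 CPM in Minnelide tumors 1 to 4 (-0.82 ± 0.31), and macrophage-like nuclei 206, 103 and 125 CPM in untreated tumors 1 to 3 and 73.6, 105, 74.2 and 65.2 CPM in Minnelide tumors 1 to 4 (-0.76 ± 0.27), with overlap in both. In untreated tumors the order ran from fibroblast-like (312 ± 71.7 CPM, SD, n = 4), endothelial-like and mural-like nuclei down to tumor-like nuclei (78.3 ± 30.1 CPM, SD, n = 4), and the range of each class met that of the next.

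Il6ra (chr3:89771366-89820719, minus strand), the chain that binds IL-6, had a leading class apart from the others that were ranked. Macrophage-like nuclei of untreated tumors held 209 to 257 CPM and the next class, osteoclast-like nuclei, 39.4 to 72.7 CPM. The nuclei with tumor and endothelial markers together were not ranked. Thinned to 1000 UMIs, 20.4% of them had a UMI of Il6ra in untreated tumor 1 and 3.125% in untreated tumor 3 (63% and 5.21% unthinned). In macrophage-like nuclei the levels were 257, 209 and 248 CPM in untreated tumors 1 to 3 and 92, 105, 80.3 and 103 CPM in Minnelide tumors 1 to 4. The Minnelide tumors lay well under the untreated ones and within a narrow band, for a log2 fold change of -1.21 ± 0.18 that stayed between -1.29 and -1.13 when tumors were left out in turn, but was -0.64 at the finer clustering and also -0.64 with osteoclast-like nuclei added. The share of macrophage-like nuclei with a UMI of Il6ra, thinned to 1000 UMIs, was 16.5% to 21.9% in untreated and 7.14% to 10.9% in Minnelide tumors (33.6% to 44.5% and 20.1% to 27.4% unthinned), and in endothelial-like nuclei it was 0.897% to 5.84% and 0.331% to 0.943% (2.78% to 17.6% and 0.651% to 5.03% unthinned). Macrophage markers were lower by value in the same nuclei of the Minnelide tumors, as given above, and their part in the level of Il6ra was not tested.

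Elsewhere the level of Il6ra hung on untreated tumor 1. Over all retained nuclei it was at 189, 24.5, 17.6 and 20.1 CPM in untreated tumors 1 to 4 and 7.15, 25.8, 7.44 and 8.73 CPM in Minnelide tumors 1 to 4, so that untreated tumor 1 exceeded every other tumor many times over and Minnelide tumor 2 exceeded untreated tumors 2, 3 and 4. The log2 fold change of -2.10 ± 0.85 became -0.65 without untreated tumor 1. In tumor-like nuclei it was at 83, 19.1, 12.6 and 18.4 CPM in untreated tumors 1 to 4 and 4.36, 12, 4.98 and 3.13 CPM in Minnelide tumors 1 to 4, with the groups just apart (-2.19 ± 0.65, or -1.35 without untreated tumor 1). In fibroblast-like nuclei it was at 88.2, 8.12, 15.8 and 15 CPM in untreated tumors 1 to 4 and 13.2, 29.7, 5.48 and 11.6 CPM in Minnelide tumors 1 to 4, and the log2 fold change turned from -0.99 ± 0.75 to 0.22 without that tumor. In endothelial-like nuclei, at 9.0 to 61.8 CPM against 2.69 to 12.2 CPM, it went from -1.80 ± 0.62 to -0.97. Markers of macrophages were higher in untreated tumor 1 as well. The 10 measured markers summed to 1052 CPM in all its retained nuclei, the highest of the 8 tumors. Its 492 macrophage-like nuclei held 3.05% of the UMIs of its retained nuclei. Its 2772 nuclei with tumor and endothelial markers together held 59.9%. After thinning, 21.9% of the former and 20.4% of the latter had a UMI of Il6ra (44.5% and 63% unthinned). The part of the macrophage markers or of either class in the level of Il6ra was not tested. By their medians in untreated tumors, the classes ran in Il6ra from macrophage-like (209 to 257 CPM), osteoclast-like (39.4 to 72.7 CPM), myocyte-like (12.9 to 131 CPM), tumor-like (12.6 to 83 CPM), endothelial-like (9.0 to 61.8 CPM), fibroblast-like (8.12 to 88.2 CPM) to mural-like (4.15 to 89.3 CPM) nuclei, and the ranges of neighbors met except between macrophage-like and osteoclast-like nuclei.

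Osmr (chr15:6843053-6904450, minus strand), the oncostatin M chain, marked the mesenchymal classes. In untreated tumors fibroblast-like (315 ± 53.1 CPM, SD, n = 4) and mural-like nuclei (239 ± 71.9 CPM, SD, n = 4) led, and the osteoclast-like nuclei (29.3 ± 11.4 CPM, SD, n = 3) were lowest by median. Osmr in fibroblast-like nuclei was at 385, 309, 309 and 256 CPM in untreated tumors 1 to 4 and 224, 258, 153 and 159.7 CPM in Minnelide tumors 1 to 4. Minnelide tumor 2 barely passed untreated tumor 4, and the other Minnelide tumors lay below all untreated tumors (log2 fold change -0.59 ± 0.19). Over all retained nuclei it was at 193, 83.8, 95.7 and 74.8 CPM in untreated tumors 1 to 4 and 41.9, 95, 38.3 and 35.9 CPM in Minnelide tumors 1 to 4, with Minnelide tumor 2 again inside the untreated range (-0.90 ± 0.39). In tumor-like nuclei the levels were 78.7, 33.1, 51.8 and 42.2 CPM in untreated tumors 1 to 4 and 18.9, 50.1, 17.3 and 10.1 CPM in Minnelide tumors 1 to 4 (-0.92 ± 0.47), and in macrophage-like nuclei 47.8, 32.1 and 50.9 CPM in untreated tumors 1 to 3 and 17.5, 44.2, 15.7 and 8.15 CPM in Minnelide tumors 1 to 4 (-0.94 ± 0.47, or -1.93 at the finer clustering). Minnelide tumor 2 was the highest of the Minnelide tumors in each of these classes, and without it the tumor-like log2 fold change was -1.55. In endothelial-like nuclei Osmr was at 271, 76.7, 86.4 and 65.1 CPM in untreated tumors 1 to 4 and 68.4, 127, 40.4 and 33.2 CPM in Minnelide tumors 1 to 4, and the log2 fold change of -0.85 ± 0.52 was -0.19 without untreated tumor 1. By their medians in untreated tumors, the classes ran in Osmr from fibroblast-like (256 to 385 CPM), mural-like (145 to 319.9 CPM), endothelial-like (65.1 to 271 CPM), myocyte-like (52.8 to 121 CPM), macrophage-like (32.1 to 50.9 CPM), tumor-like (33.1 to 78.7 CPM) to osteoclast-like (21.7 to 42.4 CPM) nuclei, and the ranges of neighbors met except between myocyte-like and macrophage-like nuclei.

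Lifr (chr15:7120095-7226970, plus strand), the LIF chain, was highest in fibroblast-like nuclei, among which the untreated tumors differed widely. They held 242, 923, 1484 and 446 CPM in untreated tumors 1 to 4 and 244, 188, 212 and 399 CPM in Minnelide tumors 1 to 4, so that untreated tumor 1 lay below Minnelide tumors 1 and 4, and the groups overlapped (log2 fold change -1.54 ± 0.54). Macrophage-like nuclei had 406, 157 and 199 CPM in untreated tumors 1 to 3 and 104, 90.2, 55.8 and 43.5 CPM in Minnelide tumors 1 to 4, without overlap (-1.67 ± 0.37). That value was -1.17 without untreated tumor 1 and -1.06 with osteoclast-like nuclei added. Tumor-like nuclei had 58.1, 54.5, 242 and 51.3 CPM in untreated tumors 1 to 4 and 40.4, 35.6, 30.7 and 37.5 CPM in Minnelide tumors 1 to 4. The groups were apart in that class, and the log2 fold change of -1.39 ± 0.54 was -0.42 without untreated tumor 3. Over all retained nuclei Lifr was at 124, 193, 405 and 103 CPM in untreated tumors 1 to 4 and 60.02, 65.3, 57 and 91.8 CPM in Minnelide tumors 1 to 4, again apart (-1.47 ± 0.45, or -0.88 without untreated tumor 3). In endothelial-like nuclei it was at 54.1 to 165 CPM and 38.6 to 80.1 CPM (-0.85 ± 0.31). In untreated tumors fibroblast-like nuclei led (774 ± 553 CPM, SD, n = 4) before macrophage-like nuclei (254 ± 133 CPM, SD, n = 3), with ranges that met, and osteoclast-like nuclei (32.9 ± 5.69 CPM, SD, n = 3) lay apart at the bottom.

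**Figure D3:**
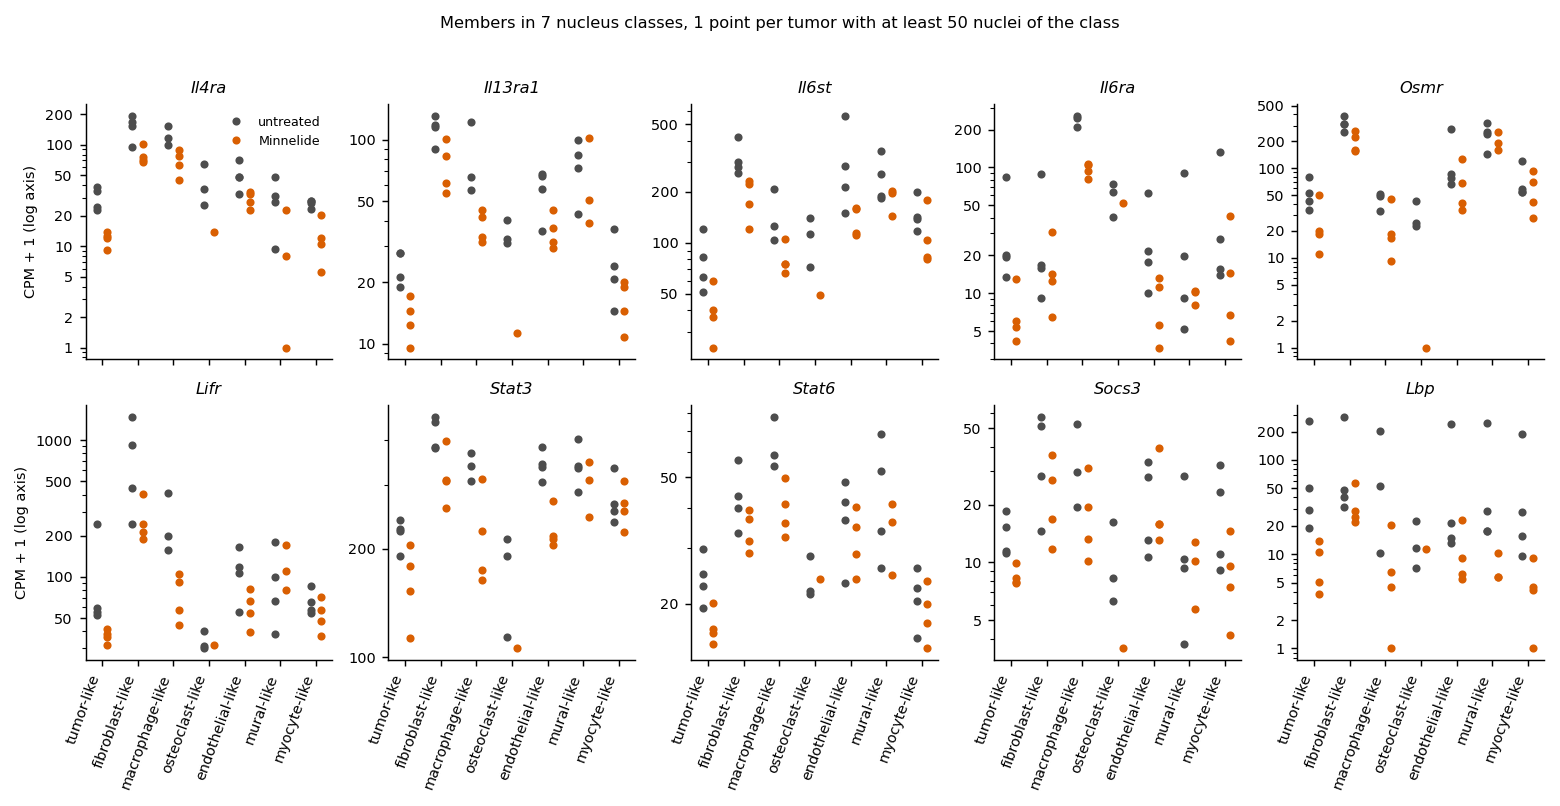
Level of each of the 10 genes (CPM + 1, logarithmic vertical axis) in the named classes of nuclei, 1 point per tumor with at least 50 nuclei of the class, with untreated and Minnelide tumors in different colors. By median among the classes shown, Il6ra is highest in macrophage-like nuclei, Osmr in fibroblast-like and mural-like nuclei, and Il4ra in fibroblast-like and macrophage-like nuclei. The nuclei with tumor and endothelial markers together are not shown.

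The cytokines that use these chains were sparse in nuclei. Il6 was at 1.81 to 6.38 CPM in untreated and 1.17 to 2.99 CPM in Minnelide tumors over all retained nuclei, and Osm at 0.275 to 0.748 CPM and 0.132 to 0.320 CPM. Il11 was at 0.866 to 2.32 CPM and 0.659 to 3.33 CPM, Cntf at 1.34 to 2.32 CPM and 1.02 to 1.49 CPM, Clcf1 at 3.63 to 7.78 CPM and 1.62 to 2.96 CPM, and Il27 at 0.188 to 1.02 CPM and 0.158 to 0.459 CPM. Lif, the ligand of the Lifr chain, was at 9.63 to 33.8 CPM and 20.8 to 36.3 CPM. In tumor-like nuclei Lif was at 41.2, 38.8, 31.5 and 38.9 CPM in untreated tumors 1 to 4 and 27.2, 25.9, 39 and 35.8 CPM in Minnelide tumors 1 to 4, in fibroblast-like nuclei at 7.52 to 21.3 CPM and 22.5 to 24.6 CPM, in macrophage-like nuclei at 3.87 to 22.5 CPM and 15.8 to 32.3 CPM, and in endothelial-like nuclei at 3.36 to 23.6 CPM and 12.6 to 27.1 CPM. The ranges of the groups overlapped in all 4 classes but the fibroblast-like one, where the Minnelide tumors lay above the untreated ones (log2 fold change of 0.60 ± 0.32, SE, edgeR adjusted p = 0.461, DESeq2 adjusted p = 0.437). Il6 in fibroblast-like nuclei was at 44, 3.57, 12.6 and 10.6 CPM in untreated tumors 1 to 4 and 4.20, 9.66, 5.26 and 11.2 CPM in Minnelide tumors 1 to 4, the highest in untreated tumor 1.

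The relaying factors differed less in value than the receptor chains. Without untreated tumor 1 this order held over all retained and in tumor-like nuclei, but not in the other classes compared. There the log2 fold change of Stat3 was -0.53 in endothelial-like nuclei (Osmr -0.19), -0.31 in fibroblast-like (Il6ra 0.22) and -0.60 in macrophage-like nuclei (Il6st -0.44). Stat3 (chr11:100775924-100830450, minus strand, overlapping Stat5a on the other strand) was at 358, 235, 254 and 276 CPM in untreated tumors 1 to 4 and 172, 276, 198 and 152 CPM in Minnelide tumors 1 to 4 over all retained nuclei. Minnelide tumor 2 lay within the untreated range (log2 fold change -0.34 ± 0.21). In endothelial-like nuclei the groups did not overlap: 381, 336, 305 and 341 CPM in untreated tumors 1 to 4 and 204, 271, 211 and 216 CPM in Minnelide tumors 1 to 4 (-0.55 ± 0.14, or -0.31 with compromised nuclei kept). They overlapped by 1 Minnelide tumor, tumor 2, in tumor-like nuclei (239, 189, 223 and 225 CPM in untreated tumors 1 to 4 and 152, 204, 178 and 112 CPM in Minnelide tumors 1 to 4, -0.29 ± 0.18), in fibroblast-like nuclei (463, 379, 381 and 447 CPM in untreated tumors 1 to 4 and 308, 396, 308 and 259 CPM in Minnelide tumors 1 to 4, -0.32 ± 0.16) and in macrophage-like nuclei (306, 366 and 338 CPM in untreated tumors 1 to 3 and 223, 311, 174 and 163 CPM in Minnelide tumors 1 to 4, -0.50 ± 0.24). Stat3 was found in every class at 172 to 418 CPM on average in untreated tumors, from osteoclast-like to fibroblast-like nuclei, and the range of each class in that order met the next.

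Stat6 (chr10:127477821-127496862, plus strand, overlapping Nab2 on the other strand) was at 35.6, 27.6, 23.1 and 24.4 CPM in untreated tumors 1 to 4 and 16.4, 19.5, 22 and 21.5 CPM in Minnelide tumors 1 to 4 over all retained nuclei, with no overlap but with a narrow gap between the groups (log2 fold change -0.32 ± 0.16). In macrophage-like nuclei, its leading class in untreated tumors (62.6 ± 12.5 CPM, SD, n = 3), it was at 76.8, 57.8 and 53.2 CPM in untreated tumors 1 to 3 and 40.3, 35, 31.4 and 48.9 CPM in Minnelide tumors 1 to 4. The groups did not overlap (-0.61 ± 0.25), and the difference was -0.17 at the finer clustering and -0.28 with osteoclast-like nuclei added. Tumor-like nuclei held 28.7, 21.8, 18.4 and 23.8 CPM in untreated tumors 1 to 4 and 13.9, 15.6, 19.1 and 15.1 CPM in Minnelide tumors 1 to 4, where Minnelide tumor 3 passed untreated tumor 3 (-0.37 ± 0.16). In fibroblast-like and endothelial-like nuclei the ranges overlapped, at 32.5 to 55.6 CPM against 27.9 to 38.5 CPM (-0.28 ± 0.18) and 22.2 to 47.3 CPM against 22.9 to 39.5 CPM (-0.21 ± 0.27), and the last changed sign to 0.05 at the finer clustering. By their medians in untreated tumors, the classes ran in Stat6 from macrophage-like (53.2 to 76.8 CPM), mural-like (24.9 to 67.8 CPM), fibroblast-like (32.5 to 55.6 CPM), endothelial-like (22.2 to 47.3 CPM), tumor-like (18.4 to 28.7 CPM), osteoclast-like (20.5 to 27.3 CPM) to myocyte-like (14.6 to 25 CPM) nuclei, and the ranges of all neighbors met.

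Socs3 (chr11:117856905-117860898, minus strand), whose promoter window above holds the STAT motif, had log2 fold changes from near 0 to below 0 across the classes, and the difference between classes was not tested. In tumor-like nuclei it was at 17.5, 14.2, 10.2 and 10.4 CPM in untreated tumors 1 to 4 and 6.91, 7.26, 6.80 and 8.97 CPM in Minnelide tumors 1 to 4. The groups were apart there (log2 fold change -0.63 ± 0.21). Over all retained nuclei it was at 37.9, 21.3, 12.7 and 10.5 CPM in untreated tumors 1 to 4 and 8.38, 9.96, 8.49 and 16.3 CPM in Minnelide tumors 1 to 4, and Minnelide tumor 4 lay within the untreated range (-0.74 ± 0.40, or -0.37 without untreated tumor 1). In endothelial-like nuclei it was at 32.3, 26.9, 12 and 9.70 CPM in untreated tumors 1 to 4 and 12.1, 14.8, 14.8 and 38.6 CPM in Minnelide tumors 1 to 4. Minnelide tumor 4 was the highest of all 8 there, and the log2 fold change of -0.01 ± 0.46 took either sign over the alternatives, from -0.49 to 0.36. In fibroblast-like nuclei it was at 56.5, 50.3, 27.4 and 13.5 CPM in untreated tumors 1 to 4 and 15.7, 25.8, 10.7 and 35.2 CPM in Minnelide tumors 1 to 4 (-0.70 ± 0.47) and in macrophage-like nuclei at 28.4, 51.4 and 18.5 CPM in untreated tumors 1 to 3 and 18.4, 9.21, 12.2 and 29.9 CPM in Minnelide tumors 1 to 4 (-0.80 ± 0.46, or 0.03 at the finer clustering). The groups overlapped in both, and in macrophage-like nuclei a level rests on 5 to 44 UMIs per tumor. By their medians in untreated tumors, the classes ran in Socs3 from fibroblast-like (13.5 to 56.5 CPM), macrophage-like (18.5 to 51.4 CPM), endothelial-like (9.70 to 32.3 CPM), myocyte-like (8.09 to 31.2 CPM), tumor-like (10.2 to 17.5 CPM), mural-like (2.74 to 27.1 CPM) to osteoclast-like (5.26 to 15.2 CPM) nuclei, and the ranges of all neighbors met.

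Lbp (chr2:158148409-158174800, plus strand) had the lowest log2 fold change of the 10 genes in 4 of the 5 comparisons, all but the fibroblast-like one, and its level hung on untreated tumor 1. Over all retained nuclei it was at 335, 45.3, 18.5 and 25.5 CPM in untreated tumors 1 to 4 and 16.7, 5.09, 11.8 and 6.49 CPM in Minnelide tumors 1 to 4. Every Minnelide tumor lay below every untreated tumor, and untreated tumor 1 lay far above all (log2 fold change -3.15 ± 0.94, or -1.47 without untreated tumor 1). Lbp in tumor-like nuclei was at 256, 50.01, 18 and 28.5 CPM in untreated tumors 1 to 4 and 12.9, 2.79, 9.59 and 4.07 CPM in Minnelide tumors 1 to 4, again apart (-3.30 ± 0.88, or -2.0 without untreated tumor 1). In fibroblast-like nuclei it was at 288, 46.7, 30.6 and 39.1 CPM in untreated tumors 1 to 4 and 55.4, 21.1, 27.6 and 23.6 CPM in Minnelide tumors 1 to 4, where Minnelide tumor 1 exceeded untreated tumors 2, 3 and 4 and the value of -1.53 ± 0.70 became -0.24 without untreated tumor 1. In endothelial-like nuclei it was at 241, 20.5, 12 and 13.9 CPM in untreated tumors 1 to 4 and 22.1, 5.22, 8.08 and 4.49 CPM in Minnelide tumors 1 to 4 (-2.65 ± 1.00, or -0.46). In macrophage-like nuclei it was at 204, 51.4 and 9.26 CPM in untreated tumors 1 to 3 and 19.3, 5.52, 3.49 and 0 CPM in Minnelide tumors 1 to 4 (-3.35 ± 0.95). The 0 of Minnelide tumor 4 allows up to 8.15 CPM at its depth, and without untreated tumor 1 the gene was too low in this class to be fitted. Untreated tumor 1 was the highest of the untreated tumors for Lbp in every class that it shared with another, from 185 CPM in its myocyte-like to 500.2 CPM in its unnamed nuclei, with 366 CPM in its nuclei of tumor and endothelial markers. By their medians in untreated tumors, the classes ran in Lbp from macrophage-like (9.26 to 204 CPM), fibroblast-like (30.6 to 288 CPM), tumor-like (18 to 256 CPM), mural-like (16.4 to 246 CPM), myocyte-like (8.49 to 185 CPM), endothelial-like (12 to 241 CPM) to osteoclast-like (6.06 to 21.7 CPM) nuclei, and the ranges of all neighbors met.

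Over the 10 genes together, the fitted log2 fold change was below 0 for 10 of 10 in each of the 5 comparisons. The member median was -0.82 over all retained nuclei, -0.87 in tumor-like, -0.69 in fibroblast-like, -0.87 in macrophage-like and -0.80 in endothelial-like nuclei, where the median over all genes tested was 0.006, 0.011, -0.015, -0.028 and -0.042. Without untreated tumor 1 the member medians were -0.62, -0.70, -0.50, -0.90 and -0.55 in the same order, over 9 members in macrophage-like nuclei, and 9 of 10 were below 0 in fibroblast-like and in endothelial-like nuclei. Every Minnelide tumor lay under every untreated tumor for 5 of 10 members over all retained nuclei, where 6.93% of all tested genes did so, and for 6 of 10 in tumor-like nuclei, where 6.56% did. The count was 1 of 10 in fibroblast-like nuclei (Il6st, all genes 5.09%), 5 of 10 in macrophage-like nuclei (all genes 14.4%) and 1 of 10 in endothelial-like nuclei (Stat3, all genes 6.04%). The members were chosen on these levels, so nothing is read from these counts. The fits were scaled by trimmed means (TMM); scaling by library totals instead shifted the median of all genes by -0.15, -0.15, -0.07, -0.13 and -0.05 in the same order of comparisons, and the CPM given here are on library totals.

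**Figure D4:**
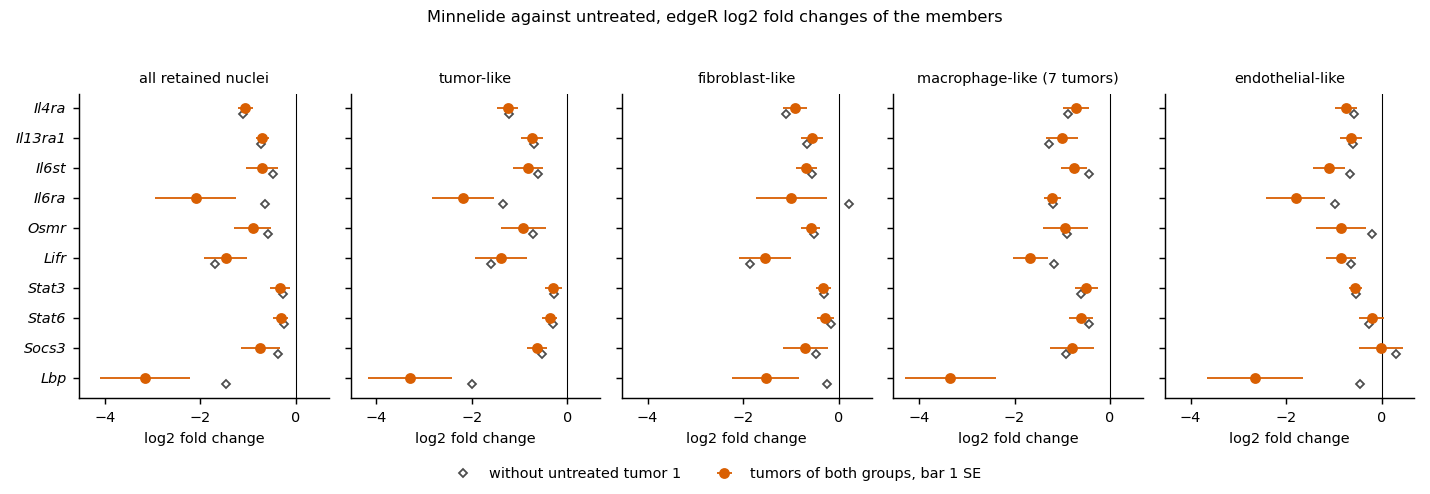
Log2 fold change (Minnelide against untreated, horizontal axis, bars 1 SE) of the 10 genes in the 5 comparisons, with a diamond for the same value without untreated tumor 1. The circles lie at or left of 0 in every panel, and for Lbp and Il6ra the diamonds lie to the right of the circles or, for Il6ra in macrophage-like nuclei, beside them; in macrophage-like nuclei Lbp has no diamond.

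The other genes of the pathways were tested from a list of 72 ligands, receptor chains, kinases, inhibitors and induced genes, 71 of which had a feature. By edgeR's quasi-likelihood test at a Benjamini-Hochberg adjusted p of 0.05 over all genes, 0 of the pathway genes tested passed in any of the 5 comparisons. Over all genes that test called 0 of 13811 (0%) in all retained nuclei, 0 of 12709 (0%) in tumor-like, 0 of 11652 (0%) in fibroblast-like, 132 of 8174 (1.61%) in macrophage-like and 3 of 9719 (0.0309%) in endothelial-like nuclei, while 1376, 1283, 1509, 2038 and 1893 genes had an unadjusted p under 0.05. DESeq2 called 181 (1.34%), 162 (1.28%), 263 (2.41%), 697 (8.88%) and 530 (5.57%) of the genes to which it gave an adjusted p. Of the pathway genes it called 2 of 54 tested over all retained nuclei, 1 of 49 in tumor-like, 0 of 44 in fibroblast-like, 5 of 32 in macrophage-like and 4 of 33 in endothelial-like nuclei.

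By value, 39 of 54 pathway genes were below 0 over all retained nuclei, 38 of 49 in tumor-like, 30 of 44 in fibroblast-like, 25 of 32 in macrophage-like and 25 of 33 in endothelial-like nuclei, with medians of -0.43, -0.37, -0.37, -0.61 and -0.36. Without untreated tumor 1 the counts were 38 of 54, 36 of 49, 24 of 43, 22 of 32 and 22 of 33, with medians of -0.20, -0.24, -0.16, -0.44 and -0.30. Of all genes with an unadjusted edgeR p under 0.05, 1035 were lower and 341 higher over all retained nuclei. In tumor-like nuclei they were 831 and 452, in fibroblast-like 739 and 770, in macrophage-like 1027 and 1011, in endothelial-like 958 and 935. DESeq2 called 157 lower and 24 higher over all retained nuclei, 140 and 22 in tumor-like and 122 and 141 in fibroblast-like nuclei. Over all retained and tumor-like nuclei, genes with a small p were thus mostly lower in general. The list was fixed with earlier results of these data known. Among its groups in all retained nuclei, the median was -1.28 for the 5 other receptor chains, -0.84 for 11 genes induced by STAT3 or in the acute phase, -0.78 for the 3 partners of Lbp in lipopolysaccharide sensing and -0.59 for 10 genes induced by STAT6. It was nearer 0 for the 10 kinases and adaptors (-0.21), the 8 negative regulators (-0.18) and 7 gp130 ligands (0.00). Several of these medians rested on untreated tumor 1: without it they were -0.19 for the other receptor chains, -0.28 for the genes induced by STAT3 or in the acute phase, 0.04 for the partners of Lbp, -0.16 for the genes induced by STAT6, -0.19 for the kinases and adaptors, -0.23 for the negative regulators and -0.27 for the ligands. In macrophage-like nuclei all 7 tested genes induced by STAT3 and all 5 induced by STAT6 were below 0, with medians of -0.70 and -1.06. Without untreated tumor 1, 5 of 7 and 5 of 5 were below 0, with medians of -0.50 and -0.75. Among the STAT6-induced genes counted, Mrc1 was also a marker by which the macrophage-like class was named. In these nuclei of the Minnelide tumors, macrophage markers were lower by median and tumor markers higher, as given above. Their part in these counts was not tested.

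**Figure D5:**
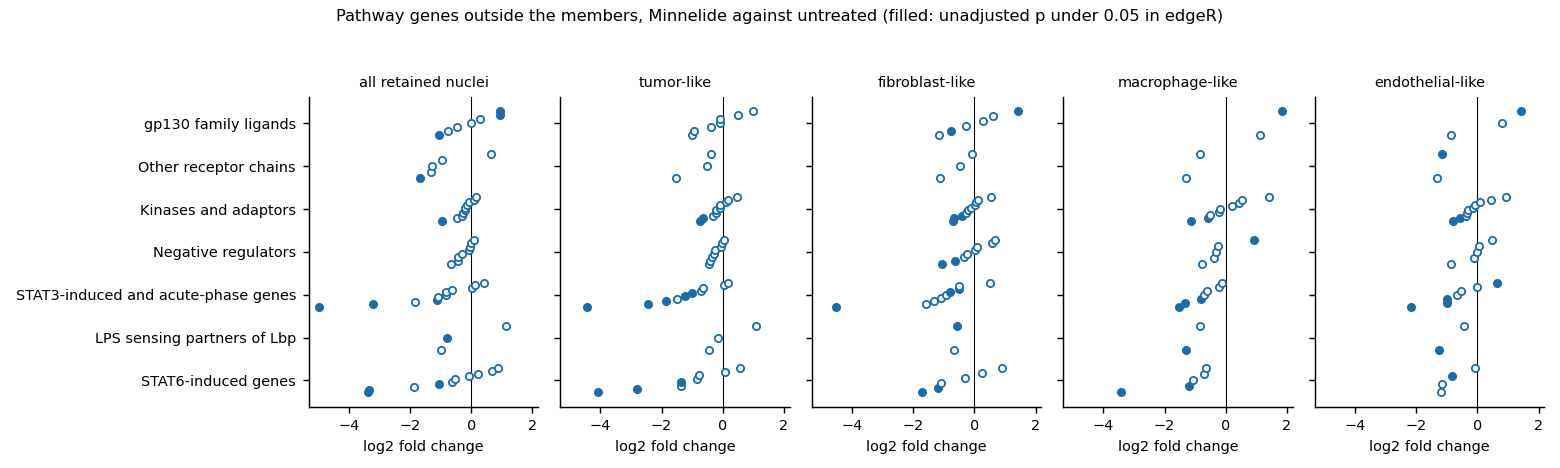
Log2 fold change (Minnelide against untreated, horizontal axis) of each tested pathway gene, 1 point per gene, with the lists as rows and the 5 comparisons as panels. Filled points had an unadjusted p under 0.05 in edgeR. The lists of STAT3-induced and STAT6-induced genes lie mostly below 0, and those of kinases and negative regulators lie close to it.

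Among the genes that the 2 STAT factors induce, Irf4, a transcription factor of alternatively activated macrophages and of lymphocytes, had the smallest p over all retained nuclei and in tumor-like nuclei, where DESeq2 called it lower and edgeR did not. In tumor-like nuclei it was at 179, 36.3, 10.1 and 18.7 CPM in untreated tumors 1 to 4 and 2.80, 1.56, 3.17 and 4.17 CPM in Minnelide tumors 1 to 4. The Minnelide tumors were all under the lowest untreated tumor, with a log2 fold change of -4.09 ± 0.88 (SE), edgeR adjusted p = 0.365, DESeq2 adjusted p = 8.27e-05. Over all retained nuclei it had a log2 fold change of -3.35 ± 0.68 (SE), edgeR adjusted p = 0.463, DESeq2 adjusted p = 0.000195, and in fibroblast-like nuclei a log2 fold change of -1.71 ± 0.50 (SE), edgeR adjusted p = 0.277, DESeq2 adjusted p = 0.0845. Without untreated tumor 1 the log2 fold change of Irf4 was -2.76 in tumor-like and -2.54 over all retained nuclei. Lcn2, an acute-phase gene, followed untreated tumor 1: it was at 183, 5.92, 3.77 and 5.31 CPM in untreated tumors 1 to 4 and 1.30, 0.403, 2.69 and 0.689 CPM in Minnelide tumors 1 to 4 over all retained nuclei, with a log2 fold change of -4.97 ± 1.47 (SE), edgeR adjusted p = 0.463, no adjusted p from DESeq2. Its value in tumor-like nuclei was a log2 fold change of -4.44 ± 1.31 (SE), edgeR adjusted p = 0.429, no adjusted p from DESeq2. Without that tumor these were -1.86 and -1.98. Bcl3, a partner of NF-kappaB that STAT3 induces, was at 112, 122 and 48.6 CPM in untreated tumors 1 to 3 and 31.5, 23.9, 43.6 and 13.6 CPM in Minnelide tumors 1 to 4 in macrophage-like nuclei, with a log2 fold change of -1.54 ± 0.39 (SE), edgeR adjusted p = 0.0685, DESeq2 adjusted p = 0.0139. In fibroblast-like nuclei Bcl3 had a log2 fold change of -0.79 ± 0.23 (SE), edgeR adjusted p = 0.276, DESeq2 adjusted p = 0.0707. Clec10a, a lectin of alternatively activated macrophages that was chosen after its values were seen, was at 464, 54.6 and 16.2 CPM in untreated tumors 1 to 3 and 14.9, 29.5, 7.85 and 13.6 CPM in Minnelide tumors 1 to 4 in macrophage-like nuclei. Untreated tumor 1 was the highest by far, and the log2 fold change of -3.43 ± 0.95 (SE), edgeR adjusted p = 0.0809, DESeq2 adjusted p = 0.00613, was -1.01 without that tumor.

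Of the kinases and adaptors, Jak1, a kinase of both receptor families, was at 525, 399, 401 and 334 CPM in untreated tumors 1 to 4 and 246, 244, 253 and 336 CPM in Minnelide tumors 1 to 4 in endothelial-like nuclei. Minnelide tumor 4 just passed untreated tumor 4 (log2 fold change of -0.57 ± 0.17, SE, edgeR adjusted p = 0.14, DESeq2 adjusted p = 0.0408). Irs2, an adaptor of the IL-4 receptor, was at 202 ± 47.2 CPM (SD, n = 4) and 117 ± 17.5 CPM (SD, n = 4) in tumor-like nuclei (log2 fold change of -0.64 ± 0.18, SE, edgeR adjusted p = 0.42, DESeq2 adjusted p = 0.088). Ly96, the partner of Tlr4 to which the chain from Lbp leads, was at 49.1, 38.5 and 46.3 CPM in untreated tumors 1 to 3 and 22.8, 7.36, 20.1 and 13.6 CPM in Minnelide tumors 1 to 4 in macrophage-like nuclei (log2 fold change of -1.30 ± 0.34, SE, edgeR adjusted p = 0.073, DESeq2 adjusted p = 0.0414). In endothelial-like nuclei it was at 41, 29.4, 25.2 and 19.4 CPM in untreated tumors 1 to 4 and 8.95, 11.3, 11.2 and 16.2 CPM in Minnelide tumors 1 to 4, without overlap (log2 fold change of -1.26 ± 0.28, SE, edgeR adjusted p = 0.119, DESeq2 adjusted p = 0.00909).

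Of the ligands, Ctf1, cardiotrophin 1, was at 6.42, 8.73, 7.03 and 5.81 CPM in untreated tumors 1 to 4 and 10.2, 10.9, 12.3 and 15.5 CPM in Minnelide tumors 1 to 4 over all retained nuclei. Every Minnelide tumor lay above every untreated tumor, and DESeq2 but not edgeR called it higher there (log2 fold change of 0.95 ± 0.23, SE, edgeR adjusted p = 0.463, DESeq2 adjusted p = 0.009). In fibroblast-like nuclei Ctf1 had a log2 fold change of 1.42 ± 0.44 (SE), edgeR adjusted p = 0.282, DESeq2 adjusted p = 0.109, and in tumor-like nuclei a log2 fold change of 0.49 ± 0.28 (SE), edgeR adjusted p = 0.571, DESeq2 adjusted p = 0.525. Clcf1, another ligand of the family, was at 11.6, 9.41, 11.1 and 12.1 CPM in untreated tumors 1 to 4 and 5.25, 8.58, 5.26 and 5.79 CPM in Minnelide tumors 1 to 4 in fibroblast-like nuclei, below by value (log2 fold change of -0.77 ± 0.24, SE, edgeR adjusted p = 0.293, DESeq2 adjusted p = 0.143).

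The remaining genes that the naming rule selected did not pass either test. Toward higher values they were Ptpn11 over all retained nuclei (log2 fold change of 0.14 ± 0.12, SE, edgeR adjusted p = 0.681, DESeq2 adjusted p = 0.549), a phosphatase that docks on gp130, and Tlr4 in tumor-like nuclei (log2 fold change of 1.08 ± 1.06, SE, edgeR adjusted p = 0.747, no adjusted p from DESeq2), where Minnelide tumor 2 held 94.3 CPM and the other Minnelide tumors 4.28 to 4.71 CPM. In fibroblast-like nuclei they were Egr2 (log2 fold change of 0.89 ± 0.42, SE, edgeR adjusted p = 0.41, DESeq2 adjusted p = 0.365), a factor that Stat6 induces in macrophages, and the kinase Jak3 (log2 fold change of 0.56 ± 0.27, SE, edgeR adjusted p = 0.42, DESeq2 adjusted p = 0.465). In macrophage-like nuclei the inhibitor Socs5 (log2 fold change of 0.92 ± 0.30, SE, edgeR adjusted p = 0.111, DESeq2 adjusted p = 0.0809) and the adaptor Irs1 (log2 fold change of 1.40 ± 0.70, SE, edgeR adjusted p = 0.252, DESeq2 adjusted p = 0.181) were named. In endothelial-like nuclei the repressor Bcl6 (log2 fold change of 0.65 ± 0.29, SE, edgeR adjusted p = 0.252, DESeq2 adjusted p = 0.254) and again Irs1 (log2 fold change of 0.95 ± 0.50, SE, edgeR adjusted p = 0.325, DESeq2 adjusted p = 0.285) were named.

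The genes outside the set whose levels were most like those of each member were read over 50 sums, each of 1 class in 1 tumor with at least 50 nuclei, from log2(CPM + 10) of 9677 genes. These sums share tumors, depth and classes, so Pearson's r is a description. Il4ra was most like Lpcat2 (r = 0.84), Igf1 (r = 0.83) and Cd244a (r = 0.83), and Il13ra1 most like Bend6 (r = 0.87), Lima1 (r = 0.86) and Adam9 (r = 0.86). For Il6st they were A4galt (r = 0.84), Il1r1 (r = 0.82) and Grk4 (r = 0.80), for Osmr Errfi1 (r = 0.87), Fam20a (r = 0.87) and A4galt (r = 0.86), and for Lifr Hpgd (r = 0.88), Spon1 (r = 0.84) and Scara3 (r = 0.82). A4galt was thus named for Il6st and for Osmr. Il6ra was most like Nceh1 (r = 0.88), Gpr160 (r = 0.86) and Cd48 (r = 0.85), of which Cd48 is a surface protein of leukocytes. For Stat3 they were Lats2 (r = 0.80), Cnrip1 (r = 0.79) and Ankrd12 (r = 0.77), for Stat6 Mndal (r = 0.86), Parp14 (r = 0.84) and Zfp36l2 (r = 0.83), and for Socs3 Ier3 (r = 0.75), Angptl4 (r = 0.74) and Spp1 (r = 0.74). For Lbp they were Msc (r = 0.95), Lcn2 (r = 0.89) and Reln (r = 0.89). Over the 44 sums without untreated tumor 1 the r of Lbp was 0.80 with Msc, 0.56 with Lcn2 and 0.70 with Reln.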

How the data were processed

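Nuclei were counted on a 3′ droplet kit with on-chip multiplexing, and the deposited matrices hold raw UMI counts per gene and nucleus that the authors made with Cell Ranger on mm39 (version 9.0.1 per the file headers, 7.0.1 and bcl2fastq 2.20 per the submitters' processing notes), 1 matrix per tumor for 4 untreated and 4 Minnelide tumors under 2 sample labels. Symbols served as identifiers, and positions came from GRCm39 annotation.

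Compromised nuclei were removed by a mixture model of mitochondrial share on genes detected (posterior over 0.75), as were nuclei under 200 genes and the nuclei with the highest Scrublet doublet scores (0.8% per 1000 nuclei). Each tumor was clustered by itself (scanpy 1.11.5, 2000 variable genes, 30 components, 40 neighbors, Leiden resolution 1.0), giving 104 clusters. This differs from the study, which integrated tumors and used other doublet and normalization tools. The cutoffs for naming clusters were set after clusters and class counts were seen and before member levels or group tests were read.

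Counts were summed per tumor and class (at least 50 nuclei) and fitted across all genes with edgeR 4.0.16 (quasi-likelihood, TMM, filterByExpr) in R 4.3.3. DESeq2 1.42.0 was an alternative, and the threshold was an adjusted p of 0.05. Both were tested on simulated data drawn with the same spread setting for every gene. That simulation did not cover genes as uneven between tumors as Lbp. Values after ± beside a log2 fold change are SE. Each was derived from the edgeR test, as the absolute log2 fold change divided by the square root of its F statistic. The members and lists were chosen with earlier results of these data known. The text names the 10 members, pathway genes that pass or else the 3 with the smallest p in each direction, the ligands, and the 3 genes most like each member; Clec10a was added after its values were seen. Some pathway genes that this rule selects are not reported here. Other alternatives were no filter, doublets or compromised nuclei kept, Leiden resolution 2.0 and each tumor left out, and, chosen after seeing the data, library totals, stricter naming, mixed tumor and endothelial clusters added, and osteoclast-like nuclei added.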

Additional observations from a re-analysis of the deposited data

Results flagged for a closer look

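In 12 of 90 groups of 4 tumors, 1 tumor stood apart from the other 3 by Dixon's criterion, which chance gives in about 1 of 20 groups. Most were untreated tumor 1. Its Il6ra was at 188.7 CPM over all retained nuclei (others 17.6 to 24.5), 83.03 CPM in tumor-like nuclei (12.6 to 19.1) and 88.2 CPM in fibroblast-like nuclei (8.12 to 15.8). Its Lbp was at 335 CPM over all retained nuclei (18.5 to 45.3), 256 CPM in tumor-like nuclei (18.0 to 50.01), 288 CPM in fibroblast-like nuclei (30.6 to 46.7) and 241 CPM in endothelial-like nuclei (11.999 to 20.5). Its Osmr was at 271 CPM in endothelial-like nuclei (65.1 to 86.4). Untreated tumor 3 had 242 CPM of Lifr in tumor-like nuclei (51.3 to 58.1). Of the Minnelide tumors, tumor 2 had 25.8 CPM of Il6ra (7.15 to 8.73) and 95.02 CPM of Osmr (35.9 to 41.9) over all retained nuclei, and tumor 4 had 38.6 CPM of Socs3 in endothelial-like nuclei (12.1 to 14.8).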

How the results depend on the processing

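Of 716 recomputed log2 fold changes of the 10 genes, 703 were below 0 and 694 moved by less than 1 SD of the replicates. The values at 0 or above were Il6ra in fibroblast-like nuclei without untreated tumor 1 (0.22), Socs3 (0.03) in macrophage-like and Stat6 (0.05) in endothelial-like nuclei at Leiden resolution 2.0, and Socs3 in endothelial-like nuclei under 10 alternatives, up to 0.36. Other values moved by over 1.5 times on a linear scale. Among them was Il6ra without Minnelide tumor 2 over all retained nuclei (-2.77) and with the clusters of mixed tumor and endothelial markers in tumor-like nuclei (-3.13). In macrophage-like nuclei they included Osmr with doublets kept (-1.55) and Lifr with osteoclast-like nuclei added (-1.06). Lbp in endothelial-like nuclei without Minnelide tumor 1 (-3.40) was another. DESeq2 called 181, 162, 263, 697 and 530 genes over all retained, tumor-like, fibroblast-like, macrophage-like and endothelial-like nuclei where edgeR called 0, 0, 0, 132 and 3, and of the pathway genes 2, 1, 0, 5 and 4 where edgeR called 0. Of the macrophage-like calls 86 were higher and 46 lower by edgeR, 428 and 269 by DESeq2, and 131 and 191 on library totals; of the endothelial-like calls 3 and 0 by edgeR and 293 and 237 by DESeq2. In macrophage-like nuclei the count was 208 with no filter (pathway genes 2), 322 on library totals (pathway genes 1), 336 with compromised nuclei kept (pathway genes 3), and 0 with doublets kept, at Leiden resolution 2.0, under stricter naming and with osteoclast-like nuclei. In endothelial-like nuclei it was 0 with doublets kept, with compromised nuclei kept and at Leiden resolution 2.0. Leaving out 1 tumor at a time gave 0 to 1 calls over all retained nuclei, 0 in tumor-like, 0 to 1 in fibroblast-like, 0 to 464 in macrophage-like (pathway genes 0 to 5) and 0 to 41 in endothelial-like nuclei; the macrophage-like count was 0 without untreated tumor 2 or any 1 of the Minnelide tumors and 464 without untreated tumor 3, and the endothelial-like count was 5 without untreated tumor 1, 41 without untreated tumor 4 and 0 without any other. The cause was not tested. No paired analysis was possible because the labels give the tumors no replicate numbers.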

Other observations

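Other genes around the receptors marked single tumors. Tlr4, the lipopolysaccharide receptor, was at 62.4, 31.6, 41 and 55.3 CPM in untreated tumors 1 to 4 and 13.9, 329, 12.2 and 16.1 CPM in Minnelide tumors 1 to 4 over all retained nuclei, so that Minnelide tumor 2 stood above all others, and in tumor-like nuclei it was at 21.2, 8.73, 13 and 15.1 CPM in untreated tumors 1 to 4 and 4.71, 94.3, 4.34 and 4.28 CPM in Minnelide tumors 1 to 4. Il13ra2, a decoy receptor for IL-13, was at 58.5, 7.67, 16.2 and 4.16 CPM in untreated tumors 1 to 4 and 2.89, 2.61, 5.97 and 0 CPM in Minnelide tumors 1 to 4 in endothelial-like nuclei, the highest in untreated tumor 1. Il2rg, the common gamma chain with which Il4ra pairs on lymphocytes, was at 24.4, 5.78, 3.53 and 2.81 CPM in untreated tumors 1 to 4 and 3.98, 2.53, 4.19 and 5.34 CPM in Minnelide tumors 1 to 4 over all retained nuclei and followed the same tumor, the only one with a T and NK cluster. Arg1, an enzyme of alternatively activated macrophages, was at 5.16, 260.1 and 18.5 CPM in untreated tumors 1 to 3 and 7.01, 145, 1.74 and 2.72 CPM in Minnelide tumors 1 to 4 in macrophage-like nuclei, so that its high tumors were in both groups. These genes were chosen after their values were seen.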
